A study of Mus musculus with 23 samples.

Results

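RNA-seq of Rptor fl/fl organoids was compared with RNA-seq of WT organoids over the whole transcriptome. The comparison used 8 of the 23 libraries of the series, chosen by their labels as the RNA-seq libraries of WT and Rptor fl/fl organoids. Each genotype had 2 organoid lines with 2 technical libraries per line, and the technical libraries of a line were summed, so that n = 2 lines per genotype. The study asked how deletion of Rptor, which encodes Raptor, changes the identity of intestinal stem cells.

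Organoids are epithelial structures grown in gel from intestinal crypts. The mice that gave the WT organoids carried VillinCre.ERT2 and RPL22.HA, and the genotype label of the Rptor fl/fl organoids gives VillinCre.ERT2 and Rptor.fl/fl without the RPL22.HA allele, an epitope-tagged ribosomal protein. Both genotypes thus shared a tamoxifen-inducible Cre that the Villin promoter drives in intestinal epithelium, and they differed in Rptor and, by the labels, in the tag. The labels call the organoids untreated, while the methods describe tamoxifen induction of the Cre. The labels give C57BL/6 as the strain, and the methods give mice of both sexes, 8 to 12 weeks old. Nothing states which line came from which animal, so p-values measure only the spread between these lines.

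Single libraries held 24466527 to 29690442 assigned reads for WT organoids and 23802944 to 29194536 for Rptor fl/fl organoids. Log2 expression correlated at 0.993 or above between technical libraries of a line, at 0.986 or above between lines of a genotype, and at 0.951 to 0.967 between genotypes, across genes, which are not independent replicates. The first principal component took 77.7% of the variance and separated the genotypes. The second took 14.6% and separated line 1 from line 2 in both. The Y-linked gene Ddx3y followed the same split, at 0.0754 and 72.3 against 0.0580 and 65.3 CPM (the first pair of values is WT lines 1 and 2, the second Rptor fl/fl lines 1 and 2, here and below). A list of 7 Y-linked genes summed to 7.28 and 227 against 7.34 and 241 CPM. Line 1 of each genotype thus held little RNA of these genes and line 2 far more, so that each genotype had 1 line of each kind. Epithelial genes were high in every line: Epcam stood at 926 and 1004 against 749.5 and 862 CPM and Cdx2, an intestinal transcription factor, at 139 and 123 against 127 and 122 CPM. Defining genes of other tissues were at or near 0, with Dcn, Cdh5, Cpa1 and Pnlip at 0 counts in all 4 lines. Of 22 immune genes 19 were under 1 CPM in every line. Their sum was 38.2 and 41.6 CPM in WT and 38 and 51.9 CPM in Rptor fl/fl, most of it from Kit, at 29.1 and 31.7 against 23.3 and 38.8 CPM. Of 17 fibroblast genes 16 were under 1 CPM in every line, and their sum was 3.71 and 4.66 CPM in WT and 2.45 and 4.77 CPM in Rptor fl/fl. No gene of either list passed the test described below, nor of a smooth muscle list. In the endothelial and neural list Lyve1 was higher, and in the acinar list Pnliprp1 was lower, at 4.22 and 3.75 against 6.71 and 6.54 CPM and 1.36 and 1.35 against 0.348 and 0.402 CPM.

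mTORC1 is a kinase complex that is active on the lysosome when amino acids, energy and growth factors are sufficient. Raptor is the subunit that recruits its substrates. Active mTORC1 promotes the synthesis of proteins, lipids and nucleotides, partly through the transcription factors ATF4, SREBP and HIF1, and it restrains TFEB and TFE3, which drive lysosomal genes. In the small intestine the epithelium is renewed from crypt stem cells, which lie next to Paneth cells and give rise to absorptive enterocytes and to secretory goblet, enteroendocrine, Paneth and tuft cells.

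Rptor (chromosome 11 of mm10, 119602905 to 119899576, plus strand) was looked at first. It stood at 51.4 and 47.9 against 14.8 and 15.5 CPM, so that Rptor fl/fl organoids held 30.5% of the WT level (log2 fold change −1.71, SE 0.08, adjusted p = 0.00516). The estimate covers whole transcripts and does not separate a deleted exon from the others. Rpl22, the gene that carries the tag in the WT lines, stood at 311 and 323 against 319 and 323 CPM (log2 fold change 0.02, SE 0.06, adjusted p = 0.855). Within 5 Mb of Rptor 160 other genes were tested, of which 25 (15.6%) were higher and 20 (12.5%) lower at an adjusted p under 0.05. Over all genes tested the shares were 11.6% and 11.0%.

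Large rises were more frequent than large falls in Rptor fl/fl organoids. Of 14131 genes tested, 1637 (11.6%) were higher and 1558 (11.0%) lower at an adjusted p under 0.05 in edgeR's quasi-likelihood test with Benjamini-Hochberg adjustment, the threshold used throughout. These 2 percentages are the background for each count of list members that follows. Both Rptor fl/fl lines lay above both WT lines in 4838 of the tested genes and below both in 4919, 69.0% in total. That share is the background for each statement that lines did not overlap. The median log2 fold change over all tested genes was −0.0049. A rise of at least 2-fold was seen in 624 called genes and of at least 8-fold in 171, against falls in 389 and 50. At an unadjusted p under 0.05 there were 2786 higher and 2853 lower genes. The plot of log2 fold change against mean expression uses the mean of the 4 lines, so it does not show the WT level by itself. Leaving out WT line 1, WT line 2, Rptor fl/fl line 1 and Rptor fl/fl line 2 in turn gave 540, 568, 744 and 1186 higher and 399, 525, 596 and 940 lower genes, in that order, and counts for gene lists with each line left out follow the same order, with 1 value where all 4 are the same. In these fits a lone line is assumed to vary like the lines of the other genotype.

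**Figure D1:**
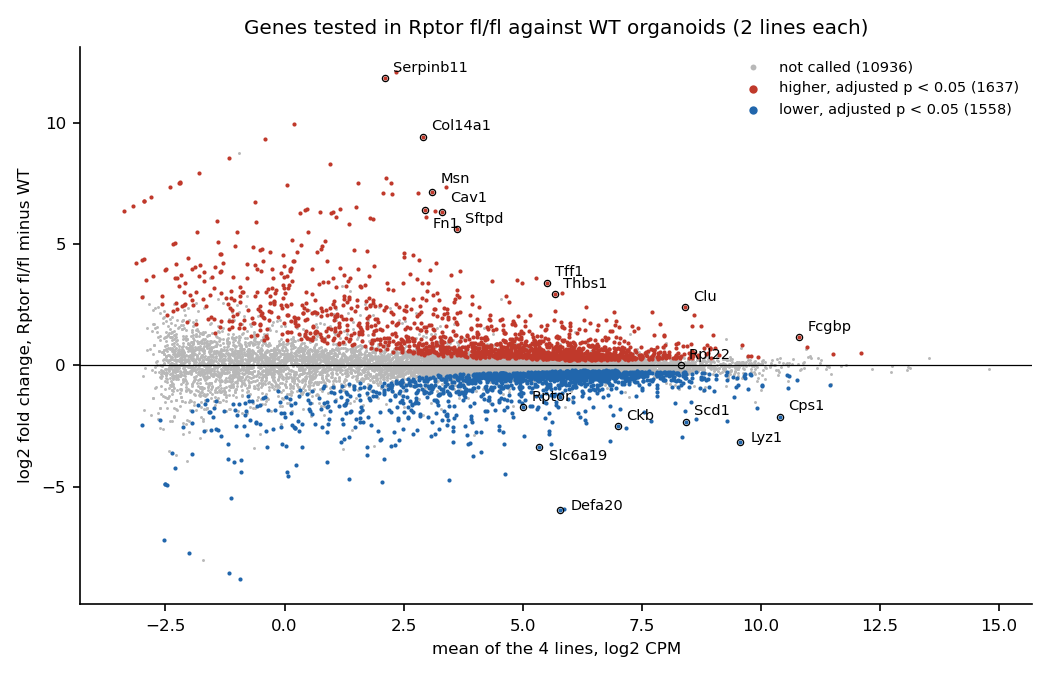
Log2 fold change (Rptor fl/fl minus WT, vertical axis) against the mean of the 4 lines in log2 CPM (horizontal axis) for the 14131 genes tested. Each point is a gene, red where higher (1637) and blue where lower (1558) at an adjusted p under 0.05, and circles mark genes named in the text.

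Line 1 of the Rptor fl/fl organoids was the farther from WT of the 2 lines. Among the genes that rose by at least 2-fold, Rptor fl/fl line 1 lay above line 2 in 434 of 624, and among those that fell by at least 2-fold it lay below line 2 in 79.2%. Among genes not called, line 1 was the farther one in 50.5%. In Rptor itself the Rptor fl/fl lines were close, as given above.

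The genes with the largest fold rises were near silent in WT organoids. A ranking by fold favours genes with a low WT level, so that level is not a separate result. The largest rises among genes with at least 10 CPM in Rptor fl/fl organoids and no overlap between genotypes included those of Spp1, Col14a1, Hs6st2, Msn, Cdh13, Fn1, Nexmif, Cav1, Sftpd, Rassf9 and Plekhs1. Several of them encode proteins of the cell surface or matrix. Msn (chromosome X of mm10, 96096042 to 96168552, plus strand), which encodes moesin, a linker of the plasma membrane to actin, had 8 and 4 counts in WT and 1189 and 638 in Rptor fl/fl. In CPM it was at 0.151 and 0.0806 against 23 and 11.1 CPM (log2 fold change 7.16, SE 0.58, adjusted p = 0.00953). Cav1, the coat protein of caveolae, stood at 0.358 and 0.121 against 26.4 and 12.5 CPM (log2 fold change 6.31, SE 0.62, adjusted p = 0.0109). Cdh13, a cadherin anchored by a lipid, stood at 0.151 and 0.0403 against 19.6 and 8.11 CPM (log2 fold change 7.12). Its level in Rptor fl/fl line 1 was more than that in line 2, as for Msn and Cav1, while both lay above both WT lines. Col14a1, which encodes a fibril-associated collagen, had 1 count in each WT line and 1188 and 400 counts in the Rptor fl/fl lines, a ratio of 748 with a 95% exact counting interval from 207 to 6181. Such intervals cover counting error only. Sftpd, a surfactant protein and collectin of mucosal defence, stood at 0.811 and 0.161 against 29.8 and 18.3 CPM (log2 fold change 5.60). Nexmif, an X-linked gene best known in neurons, stood at 0.283 and 0.141 against 22.9 and 12.6 CPM (log2 fold change 6.36). Rassf9 reached 14 and 7.81 CPM, and Plekhs1 17.6 and 7.16 CPM, both from under 1 CPM in the WT lines.

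A switch from under 0.1 CPM in both WT lines to over 1 CPM in both Rptor fl/fl lines was seen in 25 genes, and the opposite in 0. Serpinb11, an epithelial serpin, had no count in either WT line and 607 and 310 counts in the Rptor fl/fl lines, at least 288-fold higher against a floor of 3 counts over the WT lines. Wnt10a was likewise at 0 in WT and at 3.15 and 1.47 CPM, at least 77.6-fold higher. Kcnq5, a voltage-gated potassium channel, rose from 0 and 1 counts to 264 and 149 counts, a ratio of 389 with a 95% exact counting interval from 69.4 to 15402. Ankrd1, a target of YAP, Igfbp7, an insulin-like growth factor binding protein, and Pdgfd, a platelet-derived growth factor, were others of this set.

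Among the genes with the smallest adjusted p, Epdr1 stood at 3.28 and 3.10 against 22.2 and 22.3 CPM (log2 fold change 2.80, SE 0.10, adjusted p = 0.00516), Dpysl3, a regulator of the cytoskeleton in growing neurons, at 1.51 and 1.27 against 14.8 and 14.8 CPM, Cdk14, a cyclin-dependent kinase, at 0.905 and 0.806 against 11.8 and 11.2 CPM, and Zbtb10, a zinc finger repressor, at 1.11 and 1.05 against 13 and 12.4 CPM. In each of these genes both Rptor fl/fl lines lay above both WT lines. Cyp1b1, a cytochrome P450 that oxidises steroids and xenobiotics, stood at 0.716 and 0.605 against 15.1 and 12 CPM (log2 fold change 4.35). On the side of falls, Ckb, the brain-type creatine kinase that buffers ATP, stood at 226 and 209.6 against 38.7 and 37.4 CPM (log2 fold change −2.51, SE 0.07, adjusted p = 0.00516). Ndrg2, a differentiation-associated gene, stood at 27.1 and 29.6 against 4.41 and 4.04 CPM (log2 fold change −2.75), and Bcl2l15, a pro-apoptotic member of the Bcl2 family, at 19.6 and 20.8 against 3.03 and 3.23 CPM (log2 fold change −2.69). Tubb2b, a beta-tubulin whose sequence is close to that of Tubb2a, stood at 137 and 125 against 28.5 and 26.9 CPM (log2 fold change −2.24), and reads could be split between the pair. Tubb2a was lower as well, with log2 fold changes from −0.99 to −0.69 over the alternative fits described below.

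Genes of the mTORC1 pathway itself moved in both directions. Of 44 tested, 11 were higher and 9 lower, with a median log2 fold change of 0.03. The folliculin complex, which acts on the Rag GTPases that bring mTORC1 to the lysosome, rose. Flcn stood at 27.4 and 26.8 against 52.1 and 56.4 CPM (log2 fold change 1.00, SE 0.07, adjusted p = 0.00891), Fnip2 at 25.7 and 23 against 52 and 49.4 CPM (log2 fold change 1.06, SE 0.09, adjusted p = 0.00983) and Fnip1 at 50.8 and 49.4 against 74.2 and 73.9 CPM (log2 fold change 0.56). The values of each were close within a genotype and did not overlap between genotypes. Mtor, the kinase, stood at 67.1 and 63.2 against 87.3 and 82.2 CPM (log2 fold change 0.38), and Rragc, a Rag GTPase, at 63 and 59.3 against 81.4 and 78 CPM (log2 fold change 0.38). Irs1 and Irs2, adaptors that couple insulin receptors to PI3K, rose by different amounts: Irs1 stood at 0.585 and 0.403 against 14.7 and 7.06 CPM (log2 fold change 4.45, SE 0.47, adjusted p = 0.0116) and Irs2 at 26.4 and 23 against 37.3 and 36.5 CPM (log2 fold change 0.58). The inhibitors Ddit4 and Sesn3 fell. Sesn3, a sestrin, of a family of stress-induced inhibitors of mTORC1, stood at 70.0 and 83.6 against 24.5 and 29.3 CPM (log2 fold change −1.51, SE 0.13, adjusted p = 0.0104), and Ddit4 had a log2 fold change of −1.73. Its relative Ddit4l rose instead, from 1.47 and 1.29 to 9.99 and 4.86 CPM. Eif4ebp1, the translation repressor that mTORC1 phosphorylates, stood at 55.9 and 44.3 against 28.4 and 26.4 CPM (log2 fold change −0.87, SE 0.13, adjusted p = 0.0193). The mTORC1 list had 5, 4, 5 and 9 higher and 4, 5, 3 and 5 lower (medians from −0.0043 to 0.02) with each line left out.

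Some lysosomal genes rose, by small amounts, and none fell. Of 49 genes of lysosomal enzymes, membrane proteins and the proton pump, 11 were higher and 0 lower (median 0.24). The largest rise was in Ctsl, a cysteine protease, at 33.3 and 35.5 against 106 and 81.1 CPM (log2 fold change 1.45, SE 0.14, adjusted p = 0.0109). Atp6v0a1 and Atp6v1b2, subunits of the proton pump, stood at 64.8 and 58.9 against 109.8 and 103 CPM (log2 fold change 0.79, SE 0.07, adjusted p = 0.0107) and 112 and 111 against 172 and 153 CPM (log2 fold change 0.55). Tpp1, a peptidase, had a log2 fold change of 0.64, and Psap, the precursor of saposins, of 0.36. In each the Rptor fl/fl lines lay above the WT lines. The lysosomal list had 4, 4, 9 and 11 higher and 0 lower (medians from 0.18 to 0.31) with each line left out. The autophagy list changed little, with 1 higher and 3 lower of 36. Its largest rise was in Atg9b, at 76.8 and 41.6 against 215 and 158 CPM (log2 fold change 1.65), and its largest fall in Bnip3, a mitophagy receptor, at 96.5 and 59.6 against 27.3 and 23.3 CPM (log2 fold change −1.62). With each line left out it had 1, 1, 0 and 0 higher and 2, 2, 2 and 3 lower (medians from −0.05 to −0.02). Tfeb and Tfe3 did not pass the threshold, at 11.7 and 10.1 against 7.48 and 8.58 CPM and 33.8 and 32.5 against 30.8 and 30.2 CPM.

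Some serine and one-carbon genes, amino acid transporters and tRNA synthetases fell, and no member of these lists rose. Of 26 genes of serine, one-carbon, glutamine and proline metabolism 10 were lower (median −0.55). Aldh1l2, the mitochondrial enzyme that oxidises 10-formyltetrahydrofolate, stood at 21 and 11.7 against 3.01 and 3.88 CPM (log2 fold change −2.24, SE 0.33, adjusted p = 0.0185), and its cytosolic relative Aldh1l1 at 73.2 and 61.6 against 24.2 and 21.6 CPM (log2 fold change −1.56, SE 0.12, adjusted p = 0.00891). Mthfd2, the mitochondrial folate dehydrogenase, stood at 68.9 and 55 against 30.5 and 25.8 CPM (log2 fold change −1.14), and Phgdh, the first enzyme of serine synthesis, at 177 and 165 against 107 and 95.8 CPM (log2 fold change −0.75). For each of these the Rptor fl/fl lines lay below the WT lines. Gls2, a liver-type glutaminase, had a log2 fold change of −1.55 and Ahcy, which clears S-adenosylhomocysteine, of −0.65. Psat1, the second enzyme of serine synthesis, stood at 265 and 162 against 107 and 65.2 CPM (adjusted p = 0.0513). The serine and one-carbon list had 0, 0, 0 and 1 higher and 8, 12, 8 and 9 lower (medians from −0.61 to −0.40) with each line left out.

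Of 28 amino acid transporters 9 were lower (median −0.41). Slc6a19 (chromosome 13 of mm10, 73679745 to 73704865, minus strand), the carrier of neutral amino acids at the brush border, stood at 69.9 and 77.9 against 5.22 and 9.09 CPM (log2 fold change −3.36, SE 0.28, adjusted p = 0.00983). Slc7a11, which exchanges cystine for glutamate, stood at 86.9 and 76.1 against 14.1 and 11.2 CPM (log2 fold change −2.69). Both were lower in every Rptor fl/fl line by several fold. Slc15a1, the peptide transporter of enterocytes, stood at 15.6 and 14.6 against 5.66 and 8.06 CPM (log2 fold change −1.14), and Slc6a9, a glycine transporter, at 40.4 and 41.7 against 21.2 and 20.6 CPM (log2 fold change −0.97). Slc7a15 fell from 1.17 and 1.03 to 0.155 and 0.280 CPM. Of 22 cytosolic tRNA synthetases 7 were lower, and the falls were small, from −0.40 for Mars (methionine) to −0.63 for Aars (alanine) on the log2 scale. With each line left out the transporter list had 0, 0, 0 and 1 higher and 3, 6, 4 and 9 lower (medians from −0.46 to −0.27) and the synthetase list 0, 0, 0 and 1 higher and 0, 3, 6 and 2 lower (medians from −0.25 to −0.09).

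Some genes of the ATF4 stress response fell as well. ATF4 is a transcription factor whose translation rises under amino acid shortage or mTORC1 activity and which drives many of the genes above. Of 19 tested, 7 were lower and 1, the kinase Eif2ak3, higher (median −0.46). Trib3, a pseudokinase induced by stress, stood at 31.5 and 18.2 against 3.29 and 3.53 CPM (log2 fold change −2.87, SE 0.30, adjusted p = 0.0111). Chac1, which degrades glutathione, stood at 19.2 and 11.9 against 2.44 and 1.96 CPM (log2 fold change −2.82, SE 0.29, adjusted p = 0.0111). WT line 1 was the highest line for both, and both Rptor fl/fl lines lay below both WT lines. Atf5 stood at 70.4 and 65.4 against 27.7 and 31.1 CPM (log2 fold change −1.21, SE 0.09, adjusted p = 0.00891), Ddit3, which encodes CHOP, at 19.7 and 11.2 against 6.74 and 6.55 CPM (log2 fold change −1.22), and Atf4 itself at 278 and 227 against 177 and 169 CPM (log2 fold change −0.55). The ATF4 stress list had 0, 0, 0 and 1 higher and 3, 8, 3 and 4 lower (medians from −0.69 to −0.23) with each line left out.

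To show the promoters of these genes, the RefSeq windows from 250 bases before to 50 bases after each start (assembly GRCm38.p6) were searched on both strands for TGATGNAA, the core of the element that ATF4 and C/EBP proteins bind, where N is any base. Of the 33 members of the 4 lists called lower, 25 had a window and 9 of these held the motif (36%), among them Trib3, Chac1, Slc7a11, Asns and Gars. Of the members tested and not called, 7 of 49 did (14.3%), and of all 27025 genes with a window 4.51% did (3.97% of 32851 windows, since a gene can have several). The motif was chosen after the falls had been seen, and a match is a description of sequence, not of binding. The stretches around the match are printed for 5 of the genes that fell, from the largest fall to the smallest, 5′ to 3′ on the strand of the gene, with the match or its reverse complement in capitals.
Trib3: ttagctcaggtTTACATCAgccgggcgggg
Chac1: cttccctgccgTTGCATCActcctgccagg
Slc7a11: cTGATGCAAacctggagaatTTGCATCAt
Asns: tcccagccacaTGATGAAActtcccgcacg
Gars: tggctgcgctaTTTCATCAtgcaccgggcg
The Slc7a11 stretch is chr3:50443652-50443680 on the minus strand. The Trib3 stretch is chr2:152344028-152344057 on the minus strand. The Chac1 stretch is chr2:119351038-119351067 on the plus strand. The Asns stretch is chr6:7693214-7693243 on the minus strand. The Gars stretch is chr6:55037960-55037989 on the plus strand. The match began −66 bases from the annotated start in Slc7a11, which had a second match on the other strand. It began −193 bases from the start in Chac1, −23 in Asns and −30 in Gars, all before it, and at 14, after the start, in Trib3. Asns, the asparagine synthetase, stood at 173 and 164 against 115 and 92.1 CPM (log2 fold change −0.70), and Gars, the glycyl-tRNA synthetase, at 241 and 208 against 159 and 131 CPM (log2 fold change −0.63).

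Some genes of sterol and fatty acid synthesis fell, mostly by less than 2-fold. Of 25 cholesterol synthesis genes 10 were lower and 0 higher (median −0.37). Tm7sf2, a sterol reductase, stood at 79.9 and 61.7 against 31.1 and 31.9 CPM (log2 fold change −1.17, SE 0.14, adjusted p = 0.0134). Insig1, a sterol-regulated anchor of SREBP, stood at 513 and 428 against 247 and 262 CPM (log2 fold change −0.89, SE 0.11, adjusted p = 0.0147). Acat2, Pmvk, Nsdhl and Dhcr7, enzymes along the same route, had log2 fold changes from −0.62 to −0.42. The cholesterol list had 0 higher and 2, 5, 8 and 5 lower (medians from −0.44 to −0.25) with each line left out.

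Of 23 fatty acid and triglyceride synthesis genes 7 were lower and 1, Dgat2, higher (median −0.18). Scd1, which puts the first double bond into fatty acids, stood at 666 and 480.4 against 132 and 97.2 CPM (log2 fold change −2.32, SE 0.23, adjusted p = 0.0109). Gpam, which starts glycerolipid synthesis, stood at 98.6 and 79.5 against 36.5 and 32.3 CPM (log2 fold change −1.37, SE 0.13, adjusted p = 0.0108), and Acss2, which makes acetyl-CoA from acetate, at 119 and 105 against 53.3 and 57.1 CPM (log2 fold change −1.02). The desaturases Fads1 and Fads2 had log2 fold changes of −0.95 and −0.66. In all of these both Rptor fl/fl lines lay below both WT lines. Fasn, the fatty acid synthase, stood at 529 and 454 against 601 and 479 CPM (adjusted p = 0.53), with overlapping lines. In the list of fat oxidation and PPAR targets, Angptl4, an inhibitor of lipoprotein lipase, stood at 11 and 8.33 against 1.72 and 1.45 CPM (log2 fold change −2.61) and Ppargc1a, the coactivator of mitochondrial genes, at 7.03 and 5.60 against 16 and 18 CPM (log2 fold change 1.43). That list had 2 higher and 4 lower of 31. With each line left out the fatty acid synthesis list had 0, 0, 2 and 1 higher and 4, 6, 4 and 5 lower (medians from −0.25 to −0.09) and the oxidation list 1 higher and 1, 2, 1 and 7 lower (medians from −0.18 to −0.04).

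Many genes of the hypoxia response fell and none rose. Of 26 tested 13 were lower (median −0.65). Ak4, a mitochondrial adenylate kinase, stood at 156 and 95 against 37.6 and 30.2 CPM (log2 fold change −1.89, SE 0.27, adjusted p = 0.0175). Egln3, an oxygen-sensing prolyl hydroxylase, stood at 217 and 132 against 62.5 and 45.3 CPM (log2 fold change −1.69, SE 0.29, adjusted p = 0.0232), and Higd1a, a respiratory chain assembly factor, at 64 and 54.5 against 31.7 and 32.9 CPM (log2 fold change −0.87). Adm, the vasodilator adrenomedullin, stood at 6.92 and 4.05 against 1.37 and 1.14 CPM (log2 fold change −2.13). WT line 1 was the highest of the 4 lines for each, and WT line 2 lay above both Rptor fl/fl lines. Vegfa, the endothelial growth factor, stood at 139.9 and 106 against 58.6 and 71.3 CPM (log2 fold change −0.92), and Hif1a, the oxygen-regulated factor itself, at 103 and 137 against 111 and 122 CPM, with overlapping lines. The hypoxia list had 0 higher and 9, 17, 2 and 5 lower (medians from −0.86 to −0.47) with each line left out.

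Most genes that fold and move secreted proteins through the ER fell. Of 30 tested 18 were lower and 1, the goblet cell sensor Ern2, higher (median −0.36). Sec61b, a subunit of the translocon, stood at 69.9 and 75.2 against 41.3 and 44.5 CPM (log2 fold change −0.76, SE 0.07, adjusted p = 0.0108). Manf, a secreted ER stress factor, stood at 98 and 96.3 against 63.9 and 64.4 CPM (log2 fold change −0.60, SE 0.05, adjusted p = 0.00983), and Dnajb11, a co-chaperone, at 101 and 102 against 68.4 and 69.3 CPM (log2 fold change −0.56). Pdia6, a disulfide isomerase, stood at 300.0 and 299 against 196 and 203 CPM (log2 fold change −0.59). The chaperone Hspa5, known as BiP, was at 787 and 713 against 503 and 496 CPM (log2 fold change −0.59). The lines of a genotype were close in each, and the fall of each was under 2-fold. Derl3, which acts in the disposal of misfolded proteins in secretory cells, had a larger fall, at 1.83 and 2.14 against 0.329 and 0.332 CPM (log2 fold change −2.58). The ER list had 1 higher and 6, 8, 10 and 14 lower (medians from −0.42 to −0.31) with each line left out.

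Among mitochondrial genes some of those encoded in the nucleus fell, by small amounts. Of 76 nuclear respiratory chain genes 19 were lower and 0 higher (median −0.21), with Ndufs8 of complex I at 103 and 83.6 against 54.6 and 55.7 CPM (log2 fold change −0.76, SE 0.11, adjusted p = 0.0183) and Atp5k of ATP synthase at 84.4 and 86.1 against 57.7 and 61.4 CPM (log2 fold change −0.52, SE 0.06, adjusted p = 0.0127). Of 78 genes of the mitochondrial ribosome 27 were lower and 0 higher (median −0.29), with Mrps28 at 20.2 and 21.8 against 13.5 and 12.9 CPM (log2 fold change −0.67, SE 0.09, adjusted p = 0.0162) and Mrpl54 at 37.2 and 37 against 25 and 25.6 CPM. None of the 13 genes encoded by the mitochondrial genome passed the threshold, with a median of −0.11. With each line left out the respiratory chain list had 0 higher and 4, 5, 2 and 10 lower (medians from −0.24 to −0.16) and the mitochondrial ribosome list 0 higher and 1, 5, 6 and 8 lower (medians from −0.28 to −0.25). Of 83 ribosomal protein genes 4 were lower and 0 higher (median 0.05). The 4 were Rpl22l1, Rpl36al, Rpl41 and Rpl7l1, with log2 fold changes from −0.48 to −0.33, and with each line left out the list had 0 higher and 1, 0, 3 and 3 lower (medians from 0.04 to 0.06). Ribosome biogenesis genes gave 3 higher and 2 lower of 39, the rises being Polr1a and Polr1b, subunits of RNA polymerase I, and Nop2, and with each line left out 0, 0, 1 and 9 higher and 0 lower (medians from −0.0028 to 0.20). Few translation factors changed, with 3 higher and 1 lower of 38 (median −0.08). Eef2, the elongation factor that moves the ribosome, stood at 3751 and 3552 against 5238 and 5007 CPM (log2 fold change 0.49) and Eif4e, the cap-binding protein, at 127 and 126 against 104 and 94.4 CPM (log2 fold change −0.36).

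**Figure D2:**
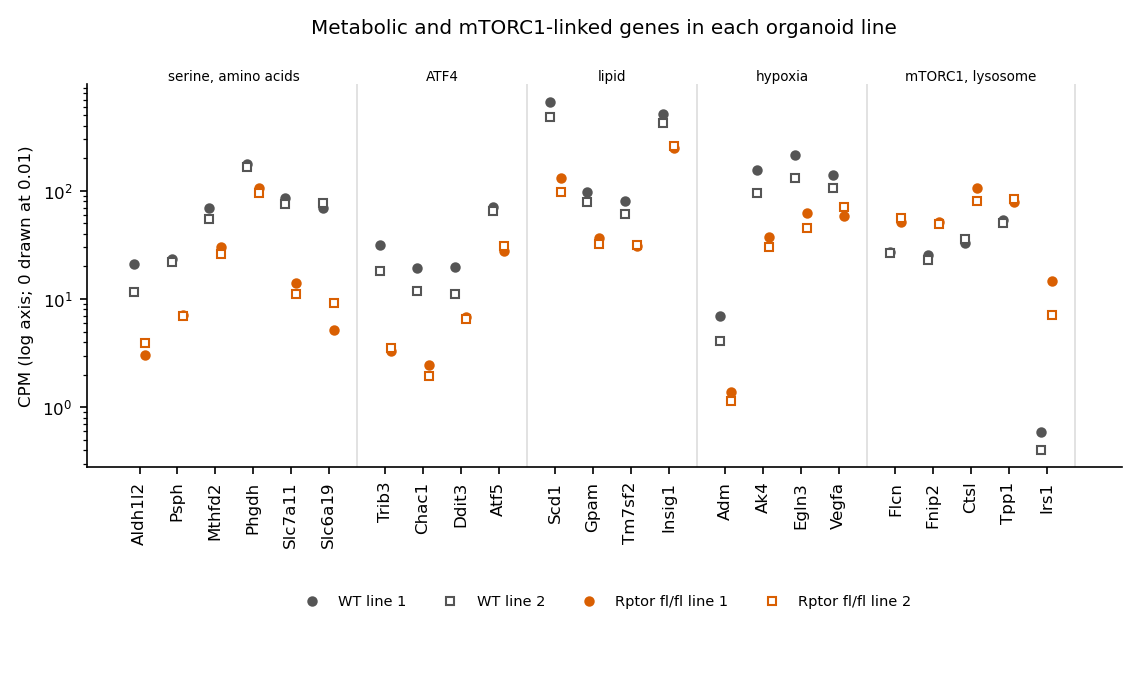
CPM (vertical log axis) of metabolic and mTORC1-linked genes in each line, grey for WT and orange for Rptor fl/fl, filled circles for line 1 and open squares for line 2. The Rptor fl/fl lines lay below the WT lines for the serine, ATF4, lipid and hypoxia genes shown and above them for Flcn, Fnip2, Ctsl, Tpp1 and Irs1.

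Some glutathione and iron genes fell and a few rose. Of 54 genes of glutathione and the NRF2 response 16 were lower and 4 higher (median −0.22). Srxn1, which repairs peroxiredoxins, stood at 70.9 and 71.2 against 39.8 and 41.2 CPM (log2 fold change −0.81, SE 0.06, adjusted p = 0.00855). Gstm3, a mu-class glutathione transferase, stood at 517 and 573 against 167 and 220.1 CPM (log2 fold change −1.49, SE 0.15, adjusted p = 0.0111). Since Gstm genes share sequence, their 7 members were also summed, to 1250 and 1433 CPM in WT and 588 and 697 CPM in Rptor fl/fl. The sum was lower in both. Nfe2l2, which encodes NRF2, rose instead, at 297 and 298 against 438 and 398 CPM (log2 fold change 0.49). In the 29 genes of metal handling 8 were lower and 4 higher (median −0.46). The apical ferric reductase Cybrd1 stood at 274 and 137 against 24.3 and 23 CPM (log2 fold change −3.12, SE 0.36, adjusted p = 0.0134) and the iron importer Slc11a2 at 389 and 199 against 71.9 and 82.9 CPM (log2 fold change −1.93). The transferrin receptor Tfrc stood at 548 and 479 against 342 and 349 CPM (log2 fold change −0.57). With each line left out the glutathione list had 2, 3, 3 and 4 higher and 11, 8, 12 and 13 lower (medians from −0.29 to −0.17) and the metal list 0, 1, 1 and 2 higher and 3, 5, 4 and 11 lower (medians from −0.57 to −0.35). Cps1, the mitochondrial enzyme that makes carbamoyl phosphate for citrulline synthesis, stood at 2169 and 2219 against 291 and 721 CPM (log2 fold change −2.12).

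Paneth cell genes fell furthest of the cell type lists. Of 29 tested 19 were lower and 1 higher (median −2.05). In RNA from whole organoids, fewer cells of a type and less RNA per cell cannot be told apart. Lyz1, the Paneth lysozyme, stood at 1252 and 1480 against 103 and 206 CPM (log2 fold change −3.15, SE 0.37, adjusted p = 0.0135). Mmp7, the protease that activates defensins, stood at 76.2 and 88.4 against 22.6 and 28 CPM (log2 fold change −1.70, SE 0.14, adjusted p = 0.00953). Ang4, an antimicrobial ribonuclease, stood at 193 and 192 against 34.6 and 58.3 CPM (log2 fold change −2.05, SE 0.25, adjusted p = 0.0149). Each was lower in both Rptor fl/fl lines, and line 1 was the lower of the 2. Wnt3, the Wnt ligand that Paneth cells provide to stem cells, stood at 9.69 and 10.1 against 1.22 and 3.11 CPM (log2 fold change −2.19). Alpha-defensins, the bactericidal peptides of the granules, made up most of the 12 largest falls: Defa20, Defa2, Defa33, Defa5, Defa34, Defa22 and Defa3, with the defensin-like AY761184 and Gm7849, stood beside Slc6a19, Ggt1 and Lyz1. Defa20 (chromosome 8 of mm10, 21509258 to 21510237, plus strand) stood at 122 and 94.2 against 1.06 and 2.36 CPM (log2 fold change −5.96, SE 0.36, adjusted p = 0.00738) and Defa2 at 131 and 96.8 against 1.60 and 2.18 CPM (log2 fold change −5.90). These genes are near-identical and lie in one cluster, so estimated counts can be shared out among them. Their sum over 20 genes stood at 4475 and 5274 CPM in WT and 807 and 1776 CPM in Rptor fl/fl, 3.77-fold lower, a smaller fall than that of most single members tested. Defa24 did not pass, at 1242 and 1537 against 297 and 683 CPM (adjusted p = 0.0611). Mptx1, a mucosal pentraxin with a close copy in Mptx2, was the member that rose, at 3.43 and 2.86 against 17.5 and 23.9 CPM (log2 fold change 2.71, SE 0.21, adjusted p = 0.00894), while Mptx2 stood at 15.7 and 15.6 against 8.04 and 13.7 CPM. The Paneth list had 1 higher and 14, 13, 19 and 23 lower (medians from −2.55 to −1.67) with each line left out.

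Goblet cell genes rose in part. Of 29 tested 9 were higher and 2 lower (median 0.36). Zg16, a lectin of the mucus layer, stood at 24.8 and 26.7 against 116 and 156 CPM (log2 fold change 2.40, SE 0.16, adjusted p = 0.00855). Muc2, the gel-forming mucin, stood at 80.3 and 94.6 against 232 and 282 CPM (log2 fold change 1.55, SE 0.13, adjusted p = 0.0101). Clca1, a mucus protease, stood at 11.8 and 15.2 against 44.1 and 71 CPM (log2 fold change 2.09), and Fcgbp, a mucin-binding protein, at 1102 and 1097 against 2081 and 2879 CPM (log2 fold change 1.17). All were higher in both Rptor fl/fl lines, with line 2 above line 1. Spdef, a transcription factor of goblet cells, stood at 12.2 and 14.6 against 20.4 and 26.8 CPM (log2 fold change 0.82), whereas Tff3 and Agr2, also goblet markers, did not pass, at 227 and 267 against 273 and 436 CPM and 132 and 179.8 against 182 and 202 CPM. Atoh1, the factor that commits cells to all secretory fates, stood at 8.97 and 10.9 against 7.88 and 12.6 CPM, with overlapping lines. The goblet list had 5, 7, 12 and 7 higher and 1, 1, 1 and 5 lower (medians from 0.24 to 0.55) with each line left out.

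Some genes of the gastric surface, not usual in small intestine, rose, most of them from very low levels. Of 20 gastric-type genes tested 9 were higher and 0 lower (median 0.52). The 27 genes of the list summed to 3405 and 3593 against 3080 and 3966 CPM, with overlapping lines, so the list as a whole was not silent in WT organoids. Tff1, a trefoil peptide of the stomach, stood at 5.98 and 9.68 against 51.9 and 113 CPM (log2 fold change 3.40, SE 0.47, adjusted p = 0.0172), and Tff2 at 0.622 and 0.464 against 2.36 and 2.48 CPM (log2 fold change 2.15, SE 0.25, adjusted p = 0.0138). Gkn1 and Gkn2, 2 of 3 gastrokine genes, stood at 0.132 and 0.0403 against 5.10 and 5.00 CPM (log2 fold change 5.82, SE 0.42, adjusted p = 0.00891) and 0.0754 and 0 against 3.07 and 3.56 CPM (log2 fold change 6.33). Muc5ac, the gastric mucin, stood at 0.0754 and 0.0202 against 1.08 and 1.64 CPM (log2 fold change 4.75). The genotypes did not overlap for any of them, yet apart from Tff1 the levels stayed under 10 CPM. The remaining gastrokine gene was tested and did not pass. The 3 summed to 8.99 and 12.7 against 14.2 and 18.5 CPM, 1.51-fold higher, so it held most of the sum in WT organoids. Sult1c2, a sulfotransferase, stood at 58.9 and 50.1 against 173 and 216 CPM (log2 fold change 1.83). The gastric-type list had 6, 9, 8 and 7 higher and 0, 0, 0 and 1 lower (medians from 0.32 to 0.79) with each line left out.

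A few hormone genes fell, and others did not pass. Of 28 enteroendocrine genes 5 were lower and 0 higher (median −0.74). Sct (secretin) stood at 3.37 and 3.10 against 0.387 and 0.559 CPM (log2 fold change −2.77, SE 0.27, adjusted p = 0.0108), and Cck (cholecystokinin) at 10.4 and 13.4 against 0.792 and 2.90 CPM (log2 fold change −2.68, SE 0.59, adjusted p = 0.0384). Gcg (proglucagon) stood at 3.34 and 11.1 against 0.599 and 1.17 CPM (log2 fold change −3.01) and Reg4, a secreted lectin of these cells, at 104 and 164 against 18.9 and 33.2 CPM (log2 fold change −2.37). Nts (neurotensin) stood at 0.735 and 0.867 against 0.0387 and 0.122 CPM (log2 fold change −3.25). Chga, the granule protein that defines the cells, stood at 28.2 and 39 against 8.29 and 20.9 CPM (adjusted p = 0.124), and Chgb, Neurod1 and Tph1 did not pass either, at 132 and 197 against 76.3 and 175 CPM, 3.39 and 4.66 against 1.31 and 2.88 CPM and 7.45 and 11.7 against 6.38 and 17.7 CPM. Rptor fl/fl line 2 lay between the WT lines for Chgb and was the highest line for Tph1, which marks serotonin-making cells. The enteroendocrine list had 0 higher and 3, 2, 4 and 11 lower (medians from −1.34 to −0.34) with each line left out. Of 20 tuft cell genes 3 were higher, Ptgs1 at 1.15 and 1.43 against 17.1 and 9.84 CPM (log2 fold change 3.38), Hpgds at 1.23 and 1.65 against 5.93 and 8.20 CPM and Gnat3 at 0.0189 and 0.0202 against 0.367 and 0.297 CPM, and Cd24a was lower (median 0.73). Dclk1, Trpm5 and Pou2f3, which define tuft cells, stood at 7.09 and 10.2 against 11.9 and 21.2 CPM, 4.83 and 7.16 against 8.79 and 13.3 CPM and 3.70 and 3.99 against 3.54 and 5.37 CPM and did not pass. The tuft list had 2 higher and 1, 0, 0 and 1 lower (medians from 0.22 to 1.08) with each line left out.

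Some enterocyte genes fell, while many did not pass. Of 31 digestive enzymes 9 were lower and 0 higher (median −0.43). Ggt1, which cleaves extracellular glutathione, stood at 39.9 and 48 against 4.04 and 5.16 CPM (log2 fold change −3.25, SE 0.17, adjusted p = 0.00565). Ace, the angiotensin-converting enzyme, stood at 30.2 and 31.1 against 10.6 and 9.66 CPM (log2 fold change −1.60, SE 0.09, adjusted p = 0.00569), and Anpep, an aminopeptidase, at 122 and 119 against 20.5 and 34.1 CPM (log2 fold change −2.14, SE 0.25, adjusted p = 0.0133). Akp3, an intestinal alkaline phosphatase, stood at 789 and 359 against 57.2 and 91.6 CPM (log2 fold change −2.95). The WT lines were far apart in Akp3, and both lay above the Rptor fl/fl lines. Sis (sucrase-isomaltase), Alpi (another alkaline phosphatase) and Fabp2 (a fatty acid binding protein) did not pass, at 1326 and 1724 against 1870 and 2929 CPM, 1492 and 1105 against 673 and 1089 CPM and 377 and 449.9 against 157 and 269 CPM. Apob, the protein of chylomicrons, rose, at 1496 and 1471 against 2486 and 2536 CPM (log2 fold change 0.76), while Apoa1 fell, at 346 and 389.9 against 213 and 271 CPM (log2 fold change −0.60). Npc1l1, the cholesterol importer, stood at 114 and 97.2 against 46.9 and 49.6 CPM (log2 fold change −1.13). The digestive enzyme list had 0, 0, 3 and 0 higher and 6, 6, 8 and 12 lower (medians from −0.63 to −0.08) with each line left out. Of 21 genes of the microvillus 5 were higher and 5 lower (median 0.22), and with each line left out that list had 2, 1, 6 and 4 higher and 1, 1, 2 and 4 lower (medians from 0.07 to 0.24). Among transcription factors Vdr, the vitamin D receptor, stood at 307 and 305 against 120.2 and 167 CPM (log2 fold change −1.09) and Hnf4a at 1022 and 1007 against 765 and 764 CPM (log2 fold change −0.41), whereas Klf4, which marks differentiated epithelium, stood at 32.6 and 23.9 against 86 and 83.1 CPM (log2 fold change 1.58, SE 0.16, adjusted p = 0.0109). Isx, a repressor of vitamin A uptake, rose from 7 and 4 counts in the WT lines to 493 and 277 in the Rptor fl/fl lines (log2 fold change 6.04, SE 0.53, adjusted p = 0.0101).

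**Figure D3:**
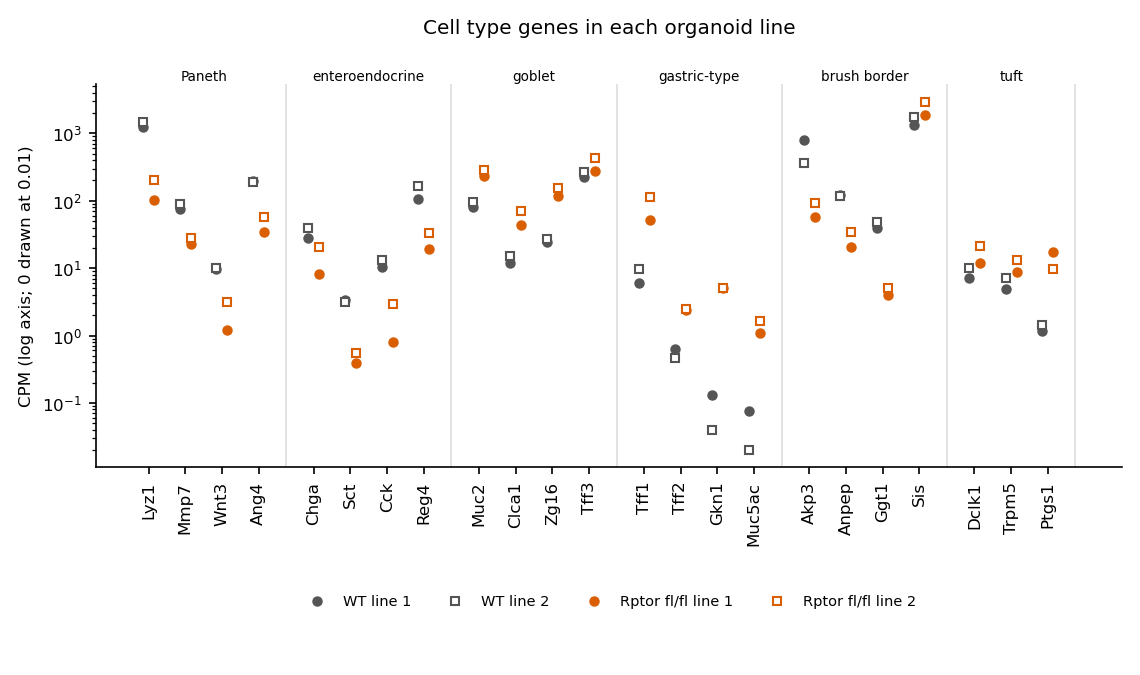
CPM (vertical log axis) of cell type genes in each line, with colours and symbols for genotype and line (grey WT, orange Rptor fl/fl, filled circles line 1, open squares line 2). The Paneth genes were lower in both Rptor fl/fl lines, the goblet genes Muc2, Clca1 and Zg16 and the gastric-type genes higher, and Chga, Sis, Tff3, Dclk1 and Trpm5 did not pass the threshold.

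Many genes of the extracellular matrix rose. Of 32 tested 15 were higher and 3 lower (median 0.78). Fn1, which encodes fibronectin, had 8 and 10 counts in WT and 908 and 737 in Rptor fl/fl, or 0.151 and 0.202 against 17.5 and 12.9 CPM (log2 fold change 6.42, SE 0.28, adjusted p = 0.00516). Lamb2 and Lama3, laminin chains of the basement membrane, stood at 8.63 and 7.88 against 31.5 and 29.9 CPM (log2 fold change 1.89, SE 0.09, adjusted p = 0.00516) and 7.28 and 8.49 against 26.2 and 24 CPM (log2 fold change 1.67). Thbs1, an adhesive glycoprotein, stood at 10.1 and 13.6 against 109 and 73 CPM (log2 fold change 2.94, SE 0.26, adjusted p = 0.0101). These values did not overlap between genotypes. Col4a1 and Col4a2, collagen chains of basement membranes, stood at 8.24 and 2.64 against 75 and 40.0 CPM (log2 fold change 3.40, SE 0.62, adjusted p = 0.0263) and 6.77 and 2.70 against 71.1 and 36.7 CPM (log2 fold change 3.50), and Lama5 at 93 and 56.6 against 406 and 283 CPM (log2 fold change 2.20). For these genes WT line 1 lay above WT line 2, and both lay below the Rptor fl/fl lines. Fbln1, a matrix protein that binds fibronectin, fell, at 93.6 and 95.2 against 35.8 and 41.7 CPM (log2 fold change −1.28, SE 0.09, adjusted p = 0.00855). Col1a1, which defines fibroblasts, had 6 and 4 counts in WT and 4 and 0 in Rptor fl/fl, and Dcn had 0 in every line. The matrix list had 13, 10, 8 and 13 higher and 1, 5, 1 and 1 lower (medians from 0.56 to 0.95) with each line left out.

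Genes that attach cells to the matrix rose in part. Of 27 integrin and hemidesmosome genes 10 were higher and 3 lower (median 0.28). Itgb4, the integrin of hemidesmosomes, stood at 155 and 145 against 382 and 316 CPM (log2 fold change 1.22, SE 0.11, adjusted p = 0.0107), Plec (plectin), which links it to keratin, at 284 and 233 against 446 and 441 CPM (log2 fold change 0.78), and Itgb6 at 21 and 21.7 against 42.1 and 35.1 CPM (log2 fold change 0.85). Flna, the actin crosslinker filamin A, stood at 131 and 125 against 349 and 256 CPM (log2 fold change 1.24, SE 0.16, adjusted p = 0.0158). All were higher in both Rptor fl/fl lines. Of 24 annexin and S100 genes 11 were higher and 1, S100a10, lower (median 0.51). Anxa8 stood at 12.7 and 12.4 against 127 and 74.1 CPM (log2 fold change 3.00, SE 0.28, adjusted p = 0.0108) and S100a7a at 0.302 and 0.363 against 5.74 and 3.16 CPM (log2 fold change 3.74). Of 26 keratin and squamous genes 9 were higher and 3 lower. Krt4, a keratin of stratified epithelia such as the oesophagus, stood at 6.58 and 5.18 against 87.4 and 56.2 CPM (log2 fold change 3.61, SE 0.27, adjusted p = 0.00894), while Krt20, a keratin of mature enterocytes, stood at 131 and 116 against 82.5 and 69.4 CPM (log2 fold change −0.71). Sfn (14-3-3 sigma) and Sprr2a1, which has close copies, had log2 fold changes of −0.59 and −0.90. The integrin list had 4, 7, 3 and 8 higher and 1, 0, 0 and 0 lower (medians from 0.28 to 0.32) with each line left out. The annexin list had 7, 8, 8 and 9 higher and 0, 0, 1 and 1 lower (medians from 0.41 to 0.65), and the keratin list 5, 4, 5 and 7 higher and 2, 3, 3 and 3 lower (medians from 0.32 to 0.37).

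Cell junction and cytoskeleton genes also changed. Of 20 tight junction genes 6 were higher and 1, Cldn3, lower (median 0.28). Cgn, which encodes cingulin, stood at 196 and 192 against 281 and 280.1 CPM (log2 fold change 0.53, SE 0.06, adjusted p = 0.0118), its relative Cgnl1 at 41.9 and 49.8 against 172 and 120.1 CPM (log2 fold change 1.67, SE 0.20, adjusted p = 0.0138), and Cldn4 at 71.6 and 55.1 against 112 and 109 CPM (log2 fold change 0.80). Of 31 adhesion genes 10 were higher and 3 lower, with Ceacam1 at 151 and 143 against 375 and 333 CPM (log2 fold change 1.27, SE 0.08, adjusted p = 0.00855) and Nectin4 at 4.30 and 5.14 against 13.5 and 12.4 CPM (log2 fold change 1.45). Of 59 actin genes 17 were higher and 8 lower (median 0.13). Besides Msn, Gsn (gelsolin) and Myh14 (a non-muscle myosin) were higher, by 0.71 and 0.66 on the log2 scale, and Cald1 (caldesmon) stood at 1.55 and 1.90 against 4.97 and 5.63 CPM (log2 fold change 1.62). Of 33 proteases and inhibitors 12 were higher and 4 lower. The urokinase receptor Plaur stood at 13.3 and 12.9 against 48.2 and 38.9 CPM (log2 fold change 1.73, SE 0.13, adjusted p = 0.00894) and the plasminogen activator Plat at 4.37 and 3.45 against 18.4 and 16.4 CPM (log2 fold change 2.15, SE 0.16, adjusted p = 0.00891). The tight junction list had 3, 3, 4 and 4 higher and 0, 0, 0 and 2 lower (medians from 0.26 to 0.32) with each line left out. The adhesion list had 4, 4, 5 and 12 higher and 0, 0, 1 and 1 lower (medians from 0.16 to 0.23). The actin list had 9, 9, 9 and 17 higher and 2, 5, 1 and 2 lower (medians from 0.10 to 0.27), and the protease list 7, 7, 9 and 13 higher and 1, 1, 1 and 2 lower (medians from 0.39 to 0.49).

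Secreted signals and their receptors rose in several families. Of 49 cytokine, chemokine and receptor genes 24 were higher and 2 lower (median 0.63). Il17re, part of the receptor for IL-17C in epithelium, stood at 1.92 and 2.26 against 17.6 and 15 CPM (log2 fold change 2.96, SE 0.15, adjusted p = 0.00565). Cxcl16, a chemokine, stood at 22 and 25.5 against 70.2 and 59.2 CPM (log2 fold change 1.44, SE 0.12, adjusted p = 0.0101), and Il1rn, the natural antagonist of IL-1, at 24.4 and 31.4 against 88.3 and 81.2 CPM (log2 fold change 1.60, SE 0.14, adjusted p = 0.0101). Tnfaip3, the NF-kappaB inhibitor A20, stood at 18.6 and 19.2 against 39.3 and 36.3 CPM (log2 fold change 1.00), and Nfkb2 at 29.2 and 25.7 against 52.2 and 52.1 CPM (log2 fold change 0.93). Each had both Rptor fl/fl lines above both WT lines. Il1r1, the IL-1 receptor, rose from 3 and 15 counts to 204 and 179 (log2 fold change 4.30). Ccl9 and Tnfsf10 (TRAIL) fell, at 32.7 and 44.2 against 8.64 and 12.7 CPM (log2 fold change −1.85) and 12.5 and 14 against 4.44 and 7.29 CPM (log2 fold change −1.17). Ptgs2, the inducible cyclooxygenase, stood at 0.566 and 1.39 against 8.79 and 11.7 CPM (log2 fold change 3.40, SE 0.44, adjusted p = 0.0162). Ptprc, which marks leukocytes, had 7 and 11 counts in WT and 13 and 20 in Rptor fl/fl, and Cd3e, a T cell gene, 2 and 1 and 1 and 0. Interferon-stimulated genes changed little, with 2 higher and 4 lower of 48. With each line left out the cytokine list had 11, 11, 13 and 18 higher and 1, 1, 2 and 3 lower (medians from 0.45 to 0.66) and the interferon list 0, 0, 1 and 1 higher and 4, 2, 2 and 2 lower (medians from −0.25 to 0.0045).

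Many complement and coagulation genes rose and none fell. Of 19 tested 10 were higher (median 0.77). F3, tissue factor, which starts coagulation, stood at 26.3 and 29.2 against 59 and 62.2 CPM (log2 fold change 1.13, SE 0.08, adjusted p = 0.00891). Cd55, which shields cells from complement, stood at 38.4 and 40.3 against 64.3 and 70.3 CPM (log2 fold change 0.77, SE 0.07, adjusted p = 0.0108), and Cfb, complement factor B, at 115 and 118 against 170.3 and 191 CPM (log2 fold change 0.63). F2r, the thrombin receptor, rose from 4 and 2 counts to 590 and 300 (log2 fold change 7.10, SE 0.64, adjusted p = 0.0107). Clu, the secreted chaperone clusterin, stood at 78.9 and 136 against 697 and 441 CPM (log2 fold change 2.41, SE 0.35, adjusted p = 0.0184), with WT line 2 above WT line 1. The complement list had 5, 9, 8 and 8 higher and 0 lower (medians from 0.56 to 0.81) with each line left out. In antigen presentation 6 of 23 genes were lower and 0 higher, and with each line left out the list had 0 higher and 1, 3, 2 and 4 lower (medians from −0.74 to −0.09). H2-Q10, a secreted class I molecule, stood at 82.8 and 81.4 against 10.1 and 13 CPM (log2 fold change −2.83, SE 0.14, adjusted p = 0.00516). The 6 H2-Q genes share much sequence, and their sum stood at 206 and 207 CPM in WT and 74.1 and 96.2 CPM in Rptor fl/fl. B2m, the light chain that all class I molecules share, stood at 155 and 195 against 126 and 172 CPM, with overlapping lines.

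Morphogen and guidance genes moved in both directions. Of 35 genes of the Wnt, BMP and TGF-beta pathways 8 were higher and 7 lower (median −0.05). Among Wnt ligands, Wnt4 stood at 3.07 and 2.18 against 12.9 and 11.1 CPM (log2 fold change 2.19, SE 0.21, adjusted p = 0.0108), and Wnt7b rose from 5 and 0 counts to 686 and 311, while Wnt3, given above, and Wnt9b were lower, the latter at 2.07 and 2.22 against 0.135 and 0.507 CPM. Bmp4 rose from 2 and 3 counts to 263 and 157, a ratio of 79.1 with a 95% exact counting interval from 33.6 to 245, and Bmp7 stood at 20.9 and 18.1 against 8.87 and 10.4 CPM (log2 fold change −1.02). Inhba, the activin A subunit, stood at 1.02 and 0.927 against 5.06 and 4.19 CPM (log2 fold change 2.25, SE 0.20, adjusted p = 0.0107), and Smad6, an inhibitor of BMP signalling, at 4.19 and 3.43 against 0.831 and 0.821 CPM (log2 fold change −2.20, SE 0.21, adjusted p = 0.0108). Ligands of one family thus moved in opposite directions. Tgfb3 had 3 and 0 counts in WT and 538 and 73 in Rptor fl/fl, a ratio of 192 with a 95% exact counting interval from 65.3 to 933, and line 1 held most of these counts. Of 20 Notch genes 3 were higher and 1 lower (median −0.04). Among those higher, Jag1, a ligand, stood at 33 and 25.7 against 108 and 86.3 CPM (log2 fold change 1.73, SE 0.17, adjusted p = 0.0109) and Notch2, a receptor, at 38.4 and 34.8 against 75.8 and 62 CPM (log2 fold change 0.91). The Wnt, BMP and TGF-beta list had 6, 7, 7 and 9 higher and 2, 3, 4 and 5 lower (medians from −0.11 to 0.06) with each line left out.

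Of 41 ephrin, semaphorin and Slit genes 17 were higher and 6 lower (median 0.31). These are contact and guidance signals that position cells along crypt and villus. Efna5, an ephrin ligand, rose from 3 and 4 counts to 560 and 471, or 0.0566 and 0.0806 against 10.8 and 8.23 CPM (log2 fold change 7.08, SE 0.30, adjusted p = 0.00516). Sema3e, a secreted semaphorin, stood at 0.509 and 0.323 against 4.60 and 4.70 CPM (log2 fold change 3.47, SE 0.27, adjusted p = 0.00938), and Robo1, a Slit receptor, at 0.0566 and 0.181 against 2.90 and 3.27 CPM (log2 fold change 4.69, SE 0.47, adjusted p = 0.0109). Each was under 1 CPM in both WT lines and over 1 CPM in both Rptor fl/fl lines. Sema4b stood at 39.1 and 40.8 against 65 and 69.9 CPM (log2 fold change 0.76) and Sema3c at 14.1 and 14.8 against 62.6 and 40.4 CPM (log2 fold change 1.83), while the plexin receptor Plxnb1 fell, at 31.2 and 35 against 17.5 and 19.4 CPM (log2 fold change −0.84). Of 25 growth factor genes 8 were higher and 2 lower. Btc (betacellulin) stood at 35.4 and 32.6 against 58.5 and 56.1 CPM (log2 fold change 0.75) and Areg (amphiregulin) at 41.5 and 33.7 against 64.7 and 67.8 CPM (log2 fold change 0.82), both ligands of Egfr, which had a log2 fold change of 0.49. Of 33 genes that respond to MAPK signalling 6 were higher and 0 lower, with Klf6 at 77 and 75.5 against 124 and 114 CPM (log2 fold change 0.64) and Egr1 at 19 and 14.7 against 36.2 and 28.6 CPM (log2 fold change 0.94). The ephrin list had 8, 7, 8 and 12 higher and 1, 4, 1 and 5 lower (medians from 0.29 to 0.37) with each line left out. The growth factor list had 2, 3, 4 and 6 higher and 1, 1, 1 and 3 lower (medians from 0.15 to 0.42), and the MAPK list 4, 1, 1 and 6 higher and 0, 1, 0 and 0 lower (medians from 0.25 to 0.35).

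**Figure D4:**
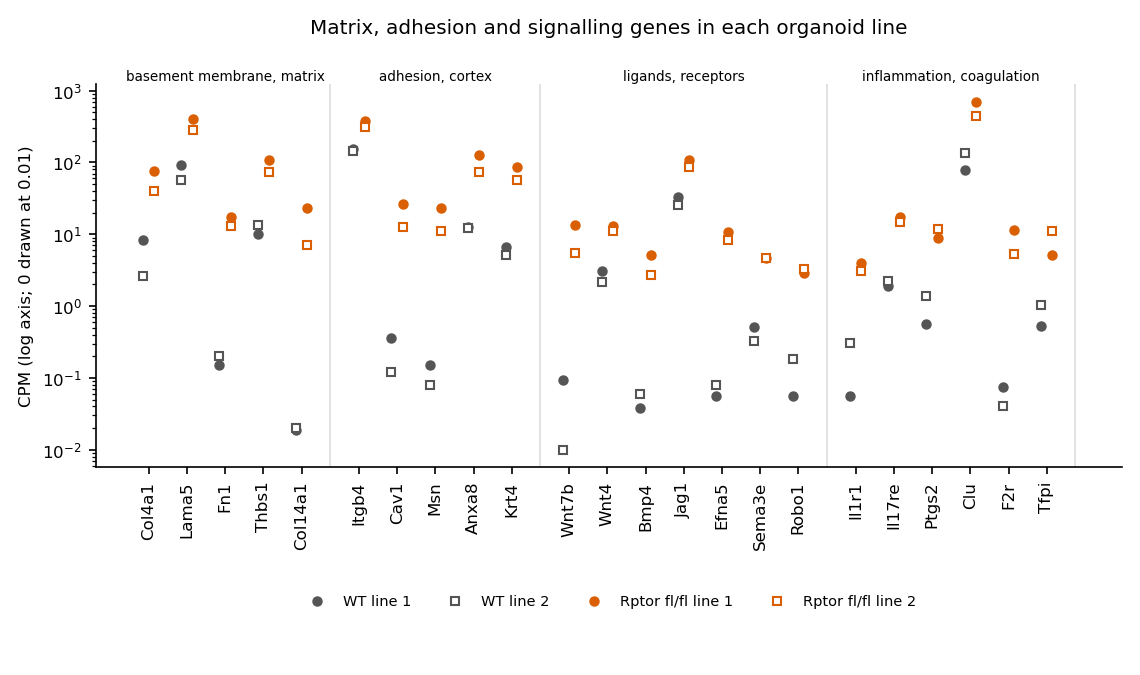
CPM (vertical log axis, 0 drawn at 0.01) of matrix, adhesion and signalling genes in each line (grey WT, orange Rptor fl/fl, filled circles line 1, open squares line 2). Every gene shown had both Rptor fl/fl lines above both WT lines, as 4838 of the 14131 tested genes had. Among those under 1 CPM in both WT lines were Fn1, Col14a1, Msn, Cav1, Wnt7b, Bmp4, Efna5, Sema3e, Robo1, Il1r1 and F2r.

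Few cell cycle genes changed. Of 56 tested 3 were higher and 4 lower (median −0.11). Mki67, which marks dividing cells, stood at 776 and 722 against 887 and 767 CPM and Top2a at 585 and 531 against 539 and 484 CPM, neither past the threshold. Cdkn2a, the locus of p16 and p19ARF, rose from 5 and 5 counts in the WT lines to 476 and 251 in the Rptor fl/fl lines (log2 fold change 6.09, SE 0.55, adjusted p = 0.0107). Ccnd2 stood at 317 and 285 against 861 and 564 CPM (log2 fold change 1.24, SE 0.22, adjusted p = 0.0243), and Cdkn1c (p57) at 5.86 and 4.31 against 2.05 and 2.22 CPM (log2 fold change −1.25). Of 29 p53 targets 10 were higher and 2 lower (median 0.47). Psrc1 stood at 9.14 and 10.9 against 46.3 and 28.7 CPM (log2 fold change 1.90, SE 0.26, adjusted p = 0.0169) and Plk2 at 17.2 and 18 against 49.7 and 35.9 CPM (log2 fold change 1.28, SE 0.17, adjusted p = 0.0168), whereas Cdkn1a (p21) stood at 118 and 79.1 against 139.5 and 108 CPM, with overlapping lines, and Btg2 fell (log2 fold change −0.69). Rptor fl/fl line 1 was the higher line for both Psrc1 and Plk2. The cell cycle list had 1, 1, 2 and 3 higher and 0, 1, 1 and 0 lower (medians from −0.19 to −0.04) with each line left out, and the p53 list 3, 3, 5 and 14 higher and 1, 1, 1 and 2 lower (medians from 0.37 to 0.57).

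**Figure D5:**
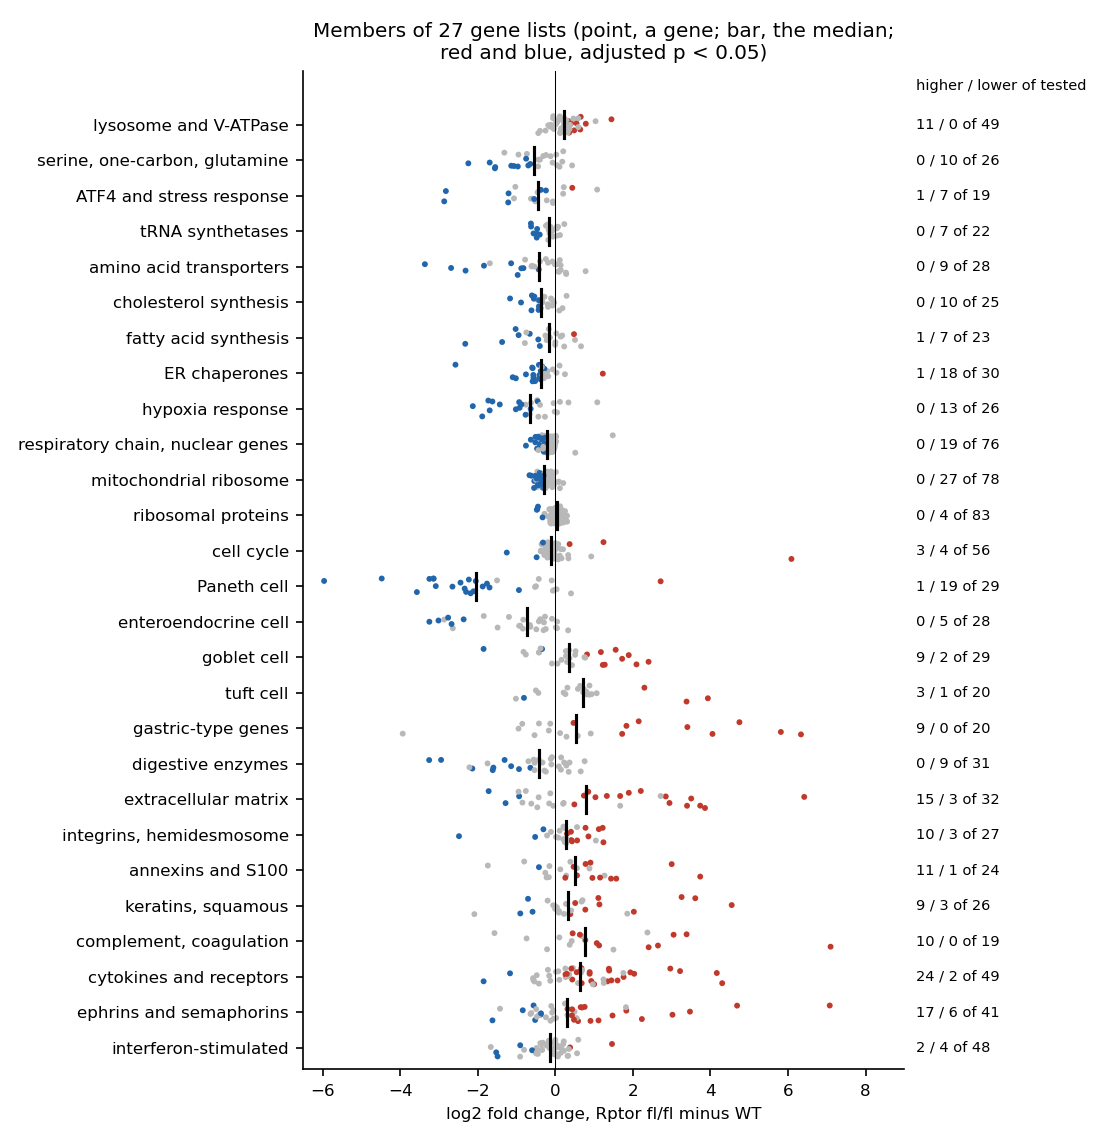
Log2 fold change (Rptor fl/fl minus WT) of each tested member of 27 gene lists, with the median as a bar and, at the right, how many members were higher or lower at an adjusted p under 0.05 of those tested. Lists of amino acid, lipid, hypoxia and ER genes and the Paneth list lie to the left of 0 and those of matrix, annexins, complement and cytokines to the right, while ribosomal proteins lie near 0.

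Transport and detoxification lists were mixed. Of 55 ion and water transport genes 12 were higher and 5 lower, with the sulfate transporter Slc26a2 at 82.3 and 73.7 against 262 and 213 CPM (log2 fold change 1.61, SE 0.12, adjusted p = 0.00903) and the lactate exporter Slc16a3 at 139 and 89.2 against 29.7 and 28.6 CPM (log2 fold change −1.97, SE 0.22, adjusted p = 0.0132). Of 59 detoxification genes 7 were higher and 8 lower. Ces2g, a carboxylesterase, stood at 92.8 and 92.4 against 182 and 189 CPM (log2 fold change 1.00, SE 0.05, adjusted p = 0.00565), and Cyp2b10, a target of the receptor CAR, at 434 and 442 against 122 and 173 CPM (log2 fold change −1.57). Of 26 genes of retinoids, vitamin D and bile acids 5 were higher and 6 lower, with Rdh10, which makes retinal from retinol, at 78.9 and 95.9 against 252 and 220.3 CPM (log2 fold change 1.43, SE 0.12, adjusted p = 0.0101) and Rarb, a retinoic acid receptor, at 0.0566 and 0.0605 against 1.31 and 0.874 CPM. Of 48 glycosylation and lectin genes 14 were higher and 5 lower. Gcnt3, which branches mucin glycans, stood at 108 and 114 against 394 and 328 CPM (log2 fold change 1.70, SE 0.11, adjusted p = 0.00757), Fut2, which fucosylates them, at 6.94 and 3.91 against 30.5 and 26.2 CPM (log2 fold change 2.38), and Galnt6, which starts them, at 189.6 and 188 against 111 and 112 CPM (log2 fold change −0.76). The transport list had 6, 6, 13 and 11 higher and 2, 3, 4 and 5 lower (medians from 0.03 to 0.20) with each line left out. The detoxification list had 5, 4, 8 and 6 higher and 7, 5, 2 and 14 lower (medians from −0.37 to 0.03), the retinoid list 3, 4, 4 and 4 higher and 2, 2, 2 and 7 lower (medians from −0.28 to −0.03) and the glycosylation list 6, 8, 11 and 11 higher and 4, 4, 3 and 6 lower (medians from 0.07 to 0.14).

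Values against stem cell enriched (SCe) organoids, WT organoids grown with 10 µM CHIR 99021 and 1.5 mM valproic acid, were set beside these. That comparison shares the Rptor fl/fl lines, so the values are not independent of those above and are given side by side. SCe line 1 held 27439459 reads, against 67598878 and 59404042 in SCe lines 2 and 3. Of 15103 genes tested 3165 (21.0%) were higher and 3287 (21.8%) lower in Rptor fl/fl than in the 3 SCe lines. The serine and one-carbon list had 17 of 26 genes lower and 2 higher than in SCe organoids (median −0.87, against −0.55 relative to WT), and Slc7a11 had a log2 difference of −4.01 (adjusted p = 0.00179). The ATF4 stress list had 7 higher and 1 lower of 18 (median 0.19), whereas relative to WT 7 were lower (median −0.46). Goblet genes had 21 of 28 higher and 1 lower (median 2.68), and Muc2 a log2 difference of 6.59 (adjusted p = 0.00118). Cholesterol synthesis genes had 10 of 25 higher and 0 lower than in SCe organoids (median 0.52), whereas relative to WT 10 were lower. The Paneth list had a median of −0.10, with 5 higher and 6 lower of 29. The matrix list had 8 higher and 17 lower of 35 (median −0.55), and Fn1 was lower than in SCe organoids by 1.98 on the log2 scale (adjusted p = 0.0115). The lysosomal list had 20 genes lower and 6 higher of 50 (median −0.28, against 0.24 relative to WT).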

How the data were processed

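Organoid RNA-seq (poly-A RNA, stranded kit) of the WT and Rptor fl/fl lines was analysed. The authors' deposited values are estimated counts per transcript, made with Salmon 1.1.0 after trimming with cutadapt 1.18, per the submitters' processing notes. The annotation was GENCODE mouse release 21 on mm10. Estimated counts were summed over the transcripts of a gene and over the 2 technical libraries of a line and rounded, and 23802944 to 29690442 counts per library limit precision for genes at few counts. CPM are counts scaled to TMM-adjusted library sizes. Genes were tested with edgeR 4.0.16 (limma 3.58.1, R 4.3.3) by the quasi-likelihood test with filterByExpr, Benjamini-Hochberg adjustment over all genes tested and a threshold of 0.05. The script was tested on simulated data. Alternatives were DESeq2 1.42.0, other size factors, a length offset, no filter, a line block, each line left out, each technical library alone and a threshold of 0.01. A table of the authors' own translation comparison and the ribosome profiling libraries were not used here.

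The genes and lists were chosen with earlier results of these data known. Names came from the 12 largest changes of at least 10 CPM and the 5 smallest p-values in each direction, up to 6 members with the smallest adjusted p per list, and cell type markers. The following were chosen after their values were seen: Wnt9b, Aldh1l2, Wnt3, Psat1, Ddit3, Tnfsf10, Vegfa, Eif4ebp1, Asns, Fads2, Hspa5, Mptx2, Tfeb, S100a10, Mars, B2m, Top2a, Tfe3, Hif1a, Kit, Atoh1, Fasn, Mki67, Cdkn1a, Mtor, Rragc, Nfe2l2, Irs2, Fcgbp, Lama5, Fut2, Clu, Ddit4l, Col4a1, Tff1, Col4a2, Il1r1, Irs1, Igfbp7, Pdgfd, Ankrd1, Tgfb3, Kcnq5, Wnt10a and Serpinb11. Promoters were taken from RefSeq. Some genes that the naming rule selects are not reported here.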

Additional observations from a re-analysis of the deposited data

How the results depend on the processing

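Technical libraries taken as separate replicates gave 3566 higher and 3642 lower genes, against 1637 and 1558, since technical spread is smaller than that between lines. At a threshold of 0.01 there were 90 and 53. Technical library 2 alone gave 1232 and 964, and the cause was not tested. With the line number as a replicate block there were 2359 and 2392. With it the lower enteroendocrine genes went from 5 to 14 of 28 and the higher tuft genes from 3 to 10 of 20. The labels do not say whether the numbers pair the lines, and the methods speak of paired samples without naming them. Lines of the same number were alike in their level of Y-linked RNA and fell on the same side of the second principal component, and their deviations correlated at 0.303. Leaving out 1 line gave 540 to 1186 higher and 399 to 940 lower genes against WT, and 1216 to 4582 and 1293 to 4519 against SCe organoids, from fewer samples. DESeq2, RLE size factors, the length offset, no filter, technical library 1 alone and library sizes without the top genes moved each count by less than 1.5 times. No named gene that passed the threshold turned its direction. Of those that did not pass, some turned, and the cause was not tested: Chgb (−0.39) had −1.09 to 0.087 without a line, Ddx3y (−0.14) had −9.21 to 8.71 without a line, Cdx2 (−0.081) had −0.17 to 0.0078 without a line, Hif1a (−0.046) had −0.24 to 0.17 without a line, Rpl22 (0.018) had −0.27 with the length offset and −0.0099 to 0.042 without a line, Kit (0.033) had −0.0072 with the block and −0.046 with technical library 2 and −0.37 to 0.35 without a line, Atoh1 (0.042) had −0.0042 with technical library 2 and −0.32 to 0.34 without a line, Fasn (0.14) had −0.038 to 0.31 without a line, Pou2f3 (0.21) had −0.10 to 0.48 without a line, Tph1 (0.33) had −0.57 to 0.88 without a line. For the named genes and alternatives, 3345 values kept direction and side of the threshold, 380 lost it and 42 gained it. Of the 380, 186 came from the threshold of 0.01, which changed no estimate. A further 18 values turned direction. Depth limits genes at few counts.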
